A study of Mus musculus with 5 samples.

Results

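The genes described here encode the receptors for 4 transmitters, glutamate, GABA, glycine and acetylcholine. They were chosen by symbol among the protein-coding genes of the GENCODE M21 annotation of mm10, of which 21938 were searched, and the rule used no measured value. The 57 genes reported are those counted throughout. Pou4f1 is a POU-homeodomain transcription factor of retinal ganglion cells (RGCs), and CUT&Tag maps where a protein lies on DNA by letting an antibody direct a tagging enzyme to it. Each library was made from 4 pooled and papain-dissociated retinas taken at E16.5 from wild-type mouse embryos, with a rabbit antibody against Pou4f1 (2 libraries), rabbit IgG (2 libraries) or a rabbit antibody against H3K9AC (1 library, not analysed here). The deposited table holds 8038 regions, each with a signal per library, which is a measure of its read coverage. Of these, 37 regions overlapped a receptor gene or lay within 10 kb of its gene body, 24 of the 57 genes had at least 1 of them, and none of the regions was shared by a pair of receptor genes. The whole retina was used, so the cells that carried a signal cannot be told apart, and no label says whether the libraries of an antibody came from separate litters. A p-value here therefore measures the spread between these libraries, which may be technical. One control column is named IgG and the other negative control, and both were taken as IgG.

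Transmitter receptors are either ion channels built from several subunits, such as the AMPA, kainate, NMDA, GABA-A, glycine and nicotinic receptors, or G protein-coupled receptors, such as the metabotropic glutamate, GABA-B and muscarinic receptors. In the mature retina RGCs receive glutamate from bipolar cells, GABA and glycine from amacrine cells, and acetylcholine from starburst amacrine cells. Before eye opening, cholinergic and later glutamatergic input drives waves of activity across the RGC layer.

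The POU motif is the DNA string that this family of factors prefers, searched here as ATNAATAATT or ATNAATTATT on either strand. It lay within the central 200 bp of 2 of the 37 receptor regions (5.41%), against 4.41% of all 8028 regions on chromosomes. Counted anywhere in the region it was in 6 regions (16.2%, against 11.1% of all regions), which are the regions of Grik1, Grm4, Grin2b, Grin2a, Gabbr2 and Grin2d. Of the 22 receptor regions away from any transcription start, 4 held it (18.2%), against 26.5% of all regions away from starts. A match is a description of the letters and not a measured binding site. The matches are shown because they are the only copies of the string in the receptor regions. Capitals mark the motif, coordinates are on mm10, and each line reads 5′ to 3′ on the strand named.
Grik1, chr16:88187549-88187611, forward strand: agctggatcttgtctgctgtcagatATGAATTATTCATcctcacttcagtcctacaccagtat
Grm4, chr17:27429817-27429876, reverse strand: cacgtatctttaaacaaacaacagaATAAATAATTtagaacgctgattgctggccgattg
Grin2b, chr6:135748919-135748981, forward strand: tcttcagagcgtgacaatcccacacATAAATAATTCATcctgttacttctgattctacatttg
Grin2a, chr16:9995624-9995683, forward strand: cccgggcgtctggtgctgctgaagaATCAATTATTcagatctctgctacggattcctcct
Gabbr2, chr4:46868034-46868093, forward strand: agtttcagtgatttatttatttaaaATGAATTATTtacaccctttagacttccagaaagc
Grin2d, chr7:45831095-45831154, reverse strand: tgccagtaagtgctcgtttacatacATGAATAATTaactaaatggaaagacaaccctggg
In Grik1 and Grin2b the capitals span 13 bases, because 2 matches on opposite strands overlap there. The cores lay 75 bp from the centre of the region in Grik1 and 74 bp in Grm4, and between 151 and 563 bp from it in the other 4 regions.

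A pair of Grik4 regions and the Gabbr2 region at 121.8 kb, which were 3 of the 5 with the highest Pou4f1 signals among the receptor regions, hold no full POU motif. The Grik5 region, also among these 5, holds none either and is not printed. The central 200 bp of the 3 are shown, which is only a part of each region. Capitals mark ATTAAT, a short string that was chosen after these sequences had been read and that reads the same on either strand.
Grik4 at 182.0 kb, chr9:42762407-42762606, forward strand: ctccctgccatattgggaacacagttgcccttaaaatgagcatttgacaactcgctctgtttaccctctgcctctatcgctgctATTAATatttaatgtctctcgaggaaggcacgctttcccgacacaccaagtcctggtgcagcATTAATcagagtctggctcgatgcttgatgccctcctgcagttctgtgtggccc
Grik4 at 271.2 kb, chr9:42673144-42673343, forward strand: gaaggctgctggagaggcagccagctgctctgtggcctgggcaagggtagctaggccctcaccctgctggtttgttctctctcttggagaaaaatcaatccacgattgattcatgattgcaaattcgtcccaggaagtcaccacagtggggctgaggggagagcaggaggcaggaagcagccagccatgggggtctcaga
Gabbr2 at 121.8 kb, chr4:46869949-46870148, forward strand: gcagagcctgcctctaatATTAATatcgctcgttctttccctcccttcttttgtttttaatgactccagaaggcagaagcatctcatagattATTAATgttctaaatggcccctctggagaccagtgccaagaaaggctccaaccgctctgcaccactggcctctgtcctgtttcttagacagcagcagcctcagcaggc
The string ATTAAT was present in the central 200 bp of 2 of the 37 receptor regions (5.41%), which are a Grik4 and a Gabbr2 region printed here, and of 4.92% of all regions. Away from starts the shares were 9.09% and 12.1%. A shorter form of the motif, ATNAATAAT or ATNAATTAT, overlaps the second of the ATTAAT copies in Gabbr2 and was found in the central 200 bp of 4 receptor regions (10.8%, against 7.06% of all regions). All 4 lie away from starts, where the shares were 18.2% and 18.1%.

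By transmitter, 15 of 23 glutamate receptor genes (65.2%), 6 of 11 GABA receptor genes (54.5%), 1 of 5 glycine receptor genes (20.0%) and 2 of 18 acetylcholine receptor genes (11.1%) had a region. Without regions at the start of another gene only, the glutamate count was 11 of 23 (47.8%), below the GABA share. The counts of the other systems did not change. The share over the receptor genes was 42.1%, beside 35.0% of all protein-coding genes. Long genes have more room for a region, and the receptor genes are long, with a median gene body of 94.0 kb against 17.4 kb. Within classes of like length a region was found for 5 of 21 receptor genes under 30 kb (23.8%, against 27.7%), 5 of 9 from 30 to 100 kb (55.6%, against 44.3%) and 14 of 27 over 100 kb (51.9%, against 56.9%). The receptor share was thus below that of all genes in the shortest and longest classes and above it in the middle class of 9 genes. The transmitter systems differ in length in the same order, since 15 of the 23 glutamate receptor genes were over 100 kb and 13 of the 18 acetylcholine receptor genes were under 30 kb. Under 30 kb, 3 of 5 glutamate, 1 of 2 GABA, 0 of 1 glycine and 1 of 13 acetylcholine receptor genes had a region. In the same order the counts were 3 of 3, 1 of 2, 1 of 2 and 0 of 2 from 30 to 100 kb. Over 100 kb they were 9 of 15, 4 of 7, 0 of 2 and 1 of 3. Without regions at the start of another gene only, the glutamate count was 1 in either shorter class. The part of length in the order of the systems was not tested.

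**Figure D1:**
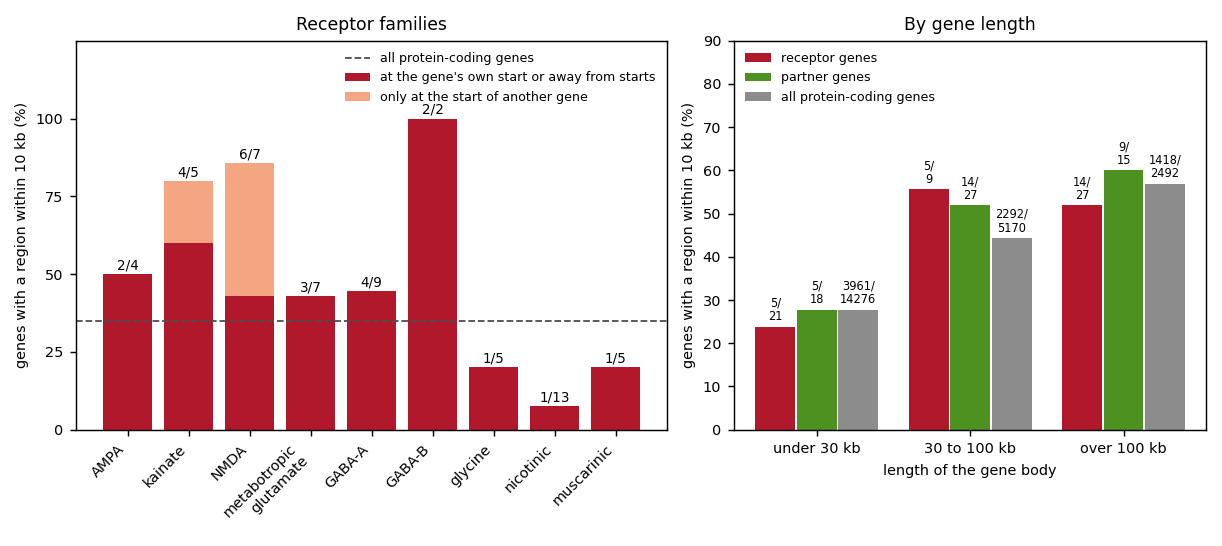
Left, the percentage of genes in each receptor family with a Pou4f1 region overlapping or within 10 kb of the gene body, with lighter bars for genes whose regions all lie at the start of another gene and a dashed line for all protein-coding genes (35.0%). Right, the percentage by length of the gene body for receptor genes, partner genes of the same transmitter systems and all protein-coding genes. The numbers are genes with a region over genes in the class, and the receptor bar is below the bar for all genes in the shortest and longest classes and above it in the middle class.

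Where the regions lay was also compared with all genes. A region at the gene's own start, meaning within 1 kb of any annotated start of that gene, was present for 10 of the 57 receptor genes (17.5%), against 25.4% of all protein-coding genes. In contrast, 13 receptor genes (22.8%) had a region away from every annotated start, against 6.22% of all genes. Among genes over 100 kb these shares were 33.3% against 40.7% at the own start and 29.6% against 25.5% away from starts, while in the shorter classes the shares were further apart. From 30 to 100 kb 0 of 9 receptor genes had a region at their own start, against 34.9%, and 33.3% had one away from starts, against 6.65%. Under 30 kb 1 of 21 had a region at its own start, against 19.3%, and 9.52% had one away from starts, against 2.7%. Of the 37 regions, 20 (54.1%) lay inside the gene and away from starts. All 20 lay in an intron and overlapped no exon of the 1 transcript used for each gene. Another 10 (27%) lay at an own start, 5 (13.5%) at the start of a neighbouring gene, and 2 (5.41%) upstream of Grm2. For 4 genes, Grik5, Grin2c, Grin2d and Grin3b, the single region was at a neighbour's start, and without them 20 receptor genes (35.1%) had a region, against 29.1% of all protein-coding genes counted in the same way.

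Of the 37 receptor regions, 23 (62.2%) were higher in Pou4f1 than in IgG and 0 were lower, by limma on log2(signal + 1) with a Benjamini-Hochberg adjusted p under 0.05 over all regions. The same test called 64.8% of all 8038 regions higher and 0.224% lower. At an unadjusted p under 0.05 the count among the receptor regions was 28 (75.7%), against 76.3% of all regions. Both Pou4f1 libraries stood above both IgG libraries in 35 of the 37 (94.6%), against 96.5% of all regions, and the exceptions were the regions of Glrb and Gabrg1. The study used IgG as the negative control when the regions were called, so they were picked for Pou4f1 signal over IgG. The test against IgG is therefore not independent of that choice, and the part of the excess due to it was not measured. Median signals in the receptor regions were 179 and 145 in Pou4f1 replicates 1 and 2, 4.39 in the library named IgG and 9.25 in the library named negative control. The median log2 difference was 4.81, beside 5.22 over all regions.

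**Figure D2:**
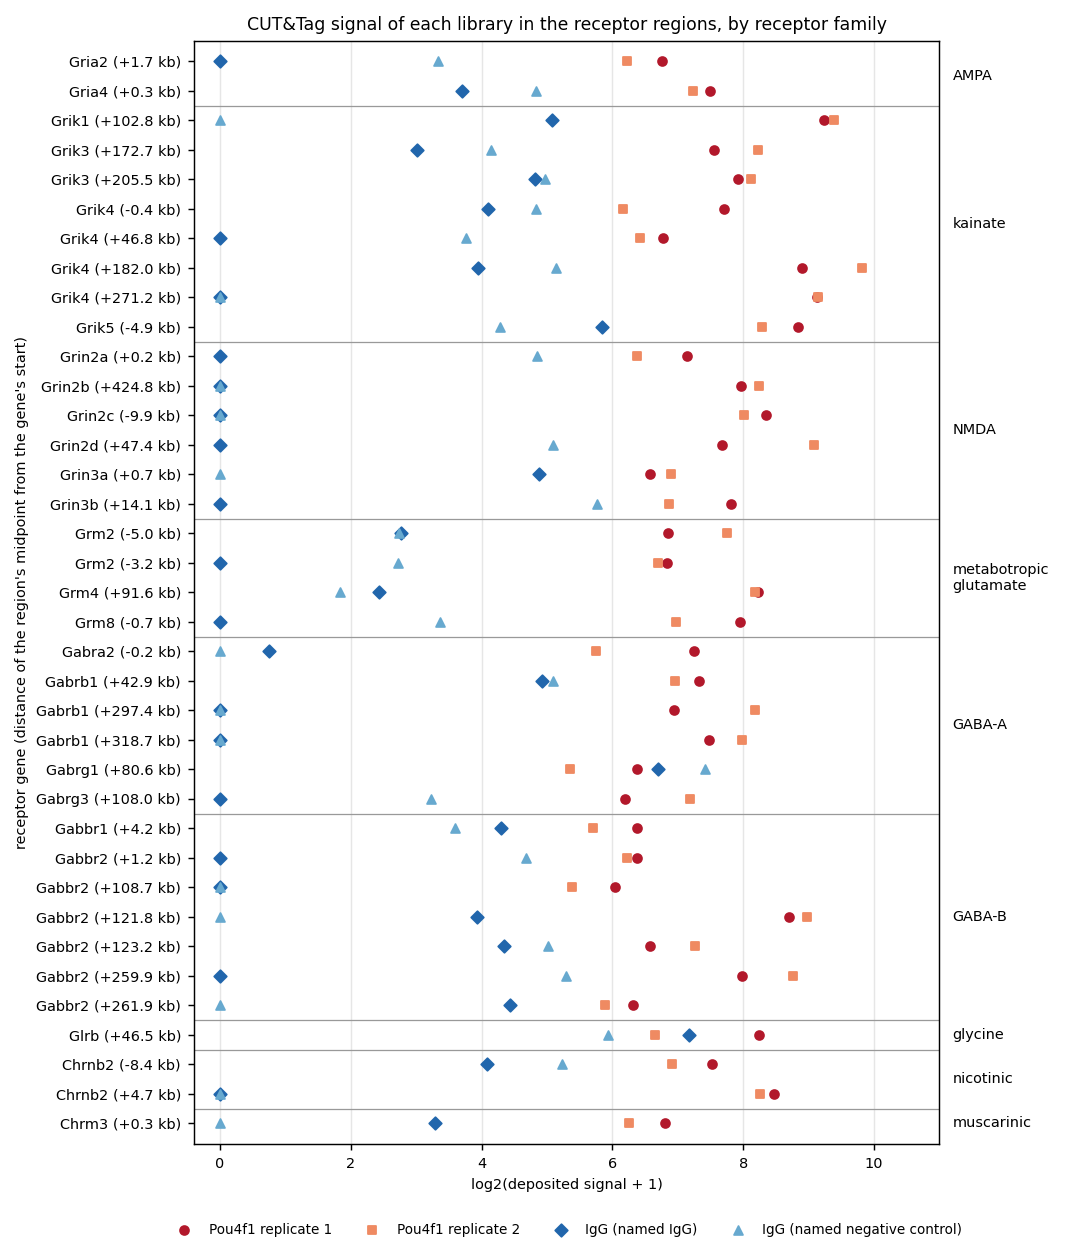
The log2(signal + 1) of each library in the 37 receptor regions, grouped by receptor family, with the distance of the region's midpoint from the gene's start in parentheses. Points at 0 are regions with no signal in that library, and the regions of Glrb and Gabrg1 are those in which an IgG library reaches a Pou4f1 library.

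Calls varied with the values of the IgG libraries. All 7 regions with a signal of 0 in both IgG libraries were called, as were 5 of the 16 with 0 in one of them and 11 of the 14 with signal in both. Over all regions the same classes were called in 99.7%, 39.4% and 74.1%. When Pou4f1 replicate 1 was left out the count of higher regions was 9, and it was 10 without replicate 2, all of them among the 23. Without the library named IgG it was 36, and without the negative control it was 35, in each case with all 23 kept. The shares of all regions called under these omissions were 29.4%, 30.9%, 94.4% and 95.9% in the same order, beside 24.3%, 27%, 97.3% and 94.6% of the receptor regions. With 1 library left in a group, limma takes its spread from the other group. A call kept without a Pou4f1 library therefore reflects how closely the IgG libraries agreed, and says nothing of the spread of Pou4f1. In the 7 regions at 0 in both IgG libraries those controls have no spread, and all 7 kept their calls. The 9 regions called under each of these omissions belong to Grin2c, Chrnb2, Gabbr2, Grik3, Gabrb1 (2 regions), Grin2b, Grik4 and Grm2. Counts per family are given below with those left when either Pou4f1 library was omitted. No family had more than 8 regions, and its count of calls stands beside the 64.8% of all regions called. Differences between families were not tested.

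The kainate receptors, glutamate-gated channels that shape transmission before and behind the synapse, had the highest median signal rank of the families. Grik1, Grik3, Grik4 and Grik5 had regions and Grik2 had none. The 8 kainate regions ranked at a median percentile of 82.3 among all regions by mean Pou4f1 signal. Of the 5 receptor regions in the top 10%, 4 were theirs. Among those 4, the Grik5 region lay outside its gene at the start of Zfp574, and the Grik1 region did not pass the test. The Grik4 regions in intron 1 and at the gene's start stood at percentiles 14.8 and 34.7. Of these 8 regions 5 were called higher, of which 2 remained without either Pou4f1 replicate.

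Grik4 encodes a high-affinity subunit that forms channels only together with Grik1, Grik2 or Grik3 products. It had 4 regions, of which 2 were called higher and 1 remained when either Pou4f1 replicate was omitted. The region 182.0 kb into the gene, chr9:42762099-42762916 in intron 3, gave 475 and 897 in Pou4f1 replicates 1 and 2, while the IgG library stood at 14.4 and the negative control at 34.2. This was the highest mean among the receptor regions, and the groups were far apart, with a log2 difference of 4.81 ± 0.70 (SE) and an adjusted p of 0.0147 by limma (0.145 and 0.169 without replicate 1 or 2). At 271.2 kb, chr9:42672592-42673896 in intron 5, the Pou4f1 libraries gave 561 and 562 and both IgG libraries 0, with an adjusted p of 0.00222. The start of Grik4, chr9:42944605-42945215, gave 207 and 70.6 in Pou4f1 and 16.2 and 27.6 in IgG. Replicate 1 was well above replicate 2 there, and the log2 difference of 2.46 ± 0.77 had an adjusted p of 0.0612. A weaker region in intron 1, at 46.8 kb, gave 109 and 84.7 in Pou4f1 and 0 and 12.6 in IgG, with an adjusted p of 0.0653.

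Grik1 encodes a low-affinity kainate subunit that Off bipolar cells use in the mature retina. Its only region, chr16:88187141-88187869, lay 102.8 kb into the gene in intron 1 and holds the overlapping pair of POU motif matches printed above. The Pou4f1 libraries gave 604 and 672, the library named IgG 32.9 and the negative control 0. All 4 values keep the groups apart, yet the difference did not pass the test (6.78 ± 2.04, adjusted p = 0.0575), and the IgG libraries were unequal. It stayed over the threshold without either Pou4f1 library (0.346 and 0.329), and it passed without either IgG library (6.33e-35 and 1.12e-08), where the lone IgG library is assumed to vary like Pou4f1.

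Grik3, another low-affinity subunit, had 2 regions near the far end of the gene, both called higher. At 172.7 kb, in intron 9 (chr4:125663046-125663851), Pou4f1 gave 186 and 299 and IgG 7.09 and 16.7, a log2 difference of 4.31 ± 0.64 with an adjusted p of 0.0153 that was lost without either Pou4f1 library (0.156 and 0.175). At 205.5 kb, in intron 13 (chr4:125695591-125696759), Pou4f1 gave 241 and 276 and IgG 27.3 and 30.4, with 3.12 ± 0.39 and an adjusted p of 0.0102. The IgG libraries agreed well in the latter, which kept its call without either Pou4f1 library (adjusted p = 0.0295 and 0.0307), but its direction turned when column totals were used as library sizes. Grik5 encodes the other high-affinity subunit, and its region, chr7:25076832-25077576, lay 4.9 kb before the gene at the start of Zfp574. The signals there were 458 and 312 in Pou4f1 and 56.3 and 18.5 in IgG, with a log2 difference of 3.50 ± 0.75 and an adjusted p of 0.0324 (0.29 and 0.249 without replicate 1 or 2), and which of the genes the region serves was not tested.

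**Figure D3:**
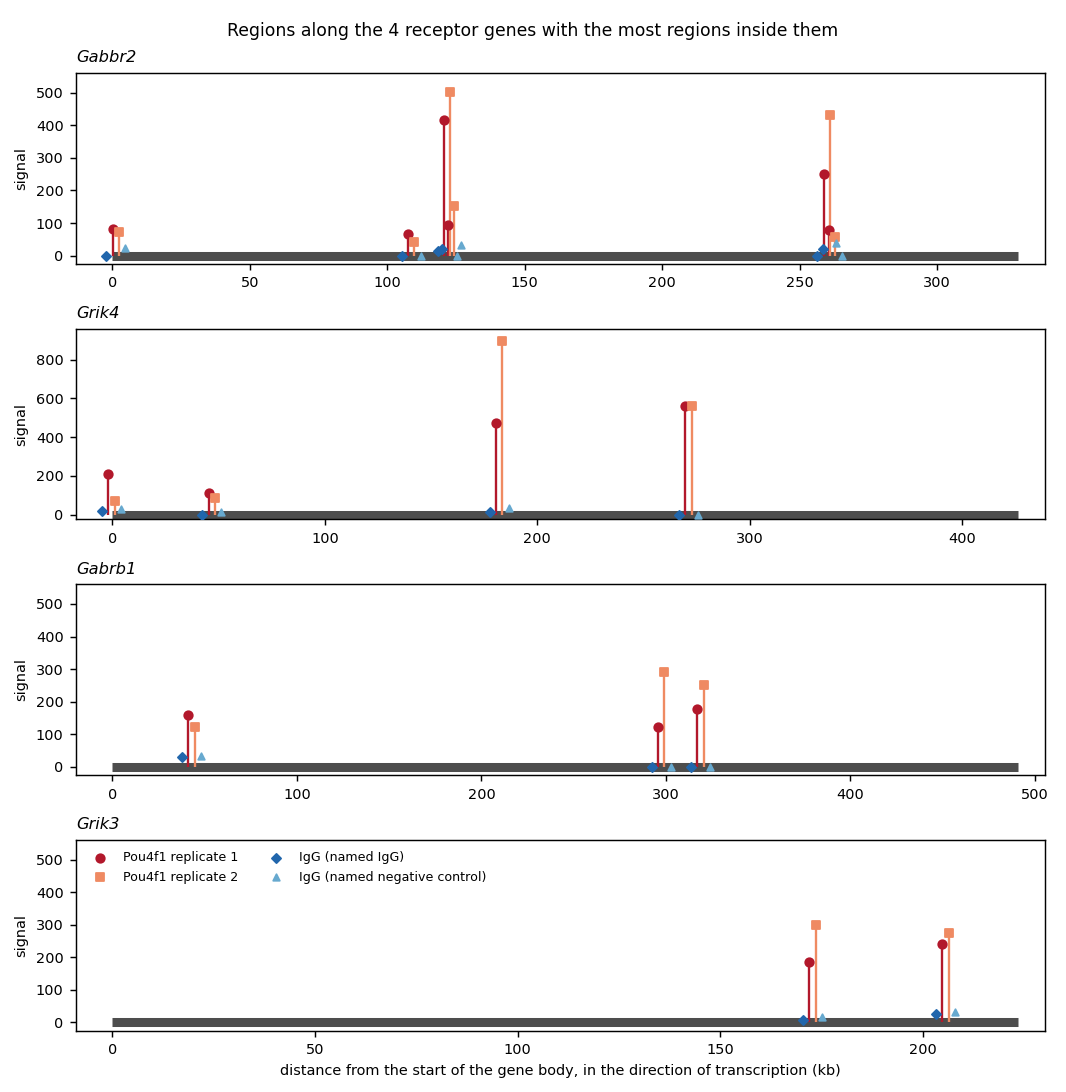
Deposited signal of each library in the regions along Gabbr2, Grik4, Gabrb1 and Grik3, drawn on the gene body (grey bar) by distance in kb from its start. The libraries of a region are set slightly side by side around its midpoint, the y axis of Grik4 is longer than the others, and the tallest Pou4f1 lines stand more than 100 kb into each gene.

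The AMPA receptors carry most fast excitation, and 2 of their 4 genes had a region. Gria4, a subunit gene, had one at its start, chr9:4795428-4796413, with 179 and 149 in Pou4f1 and 12 and 27.6 in IgG. The groups did not overlap and the log2 difference of 3.09 ± 0.59 had an adjusted p of 0.0263, which was lost without either Pou4f1 replicate (0.243 and 0.218). Gria2, whose product limits calcium entry through the channel, had a region 1.7 kb into the gene in intron 2. It gave 107 and 74.1 in Pou4f1 and 0 and 9.10 in IgG, with an adjusted p of 0.0530. Gria1 and Gria3 had no region within 10 kb.

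NMDA receptors need the obligatory subunit of Grin1 together with Grin2 or Grin3 products, and 6 of the 7 genes had a region, all but Grin1. The nearest region to Grin1 was 13.1 kb away. Of the 6 NMDA regions 2 (33.3%) were called higher, against 64.8% of all regions. In each of the other 4 exactly 1 IgG library was at 0, and of all such regions 39.4% were called. Both calls were in regions at 0 in both IgG libraries, and both remained without either Pou4f1 replicate.

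Grin2b encodes the glutamate-binding subunit that prevails in the embryonic brain. Its region, chr6:135748456-135749029, was the shortest of the 37 at 574 bp, lay 424.8 kb into the gene in intron 10 and holds a POU motif pair. Pou4f1 gave 248 and 302 and both IgG libraries gave 0 (adjusted p = 0.00222). Grin2a, the glutamate-binding subunit gene that rises later in development, had its region at its start, chr16:9994775-9996044, with 140 and 82.3 in Pou4f1 and 0 and 27.7 in IgG. The Pou4f1 values were the higher ones there, but the log2 difference of 4.34 ± 1.97 did not pass (adjusted p = 0.118). Grin3a encodes a glycine-binding subunit that lowers calcium entry. At its start, chr4:49844409-49845668, which includes 673 bp of coding sequence, Pou4f1 gave 94.8 and 118 and IgG 28.4 and 0, with 4.30 ± 1.96 and an adjusted p of 0.119.

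The other 3 NMDA genes had regions at starts of neighbours. The Grin2d region, chr7:45830442-45831504, lay 379 bp past the end of the gene at the start of Grwd1 and holds a POU motif. It gave 203 and 540 in Pou4f1 and 0 and 33.0 in IgG, with the Pou4f1 libraries more than 2-fold apart and an adjusted p of 0.0789. Near Grin2c, at the start of Fdxr and 9378 bp outside the gene, Pou4f1 gave 324 and 258 and IgG 0 in both libraries (adjusted p = 0.00222). Near Grin3b, at the start of Tmem259 and 7068 bp outside the gene, Pou4f1 gave 223 and 116 and IgG 0 and 53.5 (adjusted p = 0.153). All 3 regions would leave the list if starts of other genes were not counted.

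Among the metabotropic glutamate receptors, Grm2, Grm4 and Grm8 had a region, and Grm3, Grm5, Grm6 and Grm7 had none. Grm6 is the receptor of On bipolar cells, which arise mostly after this stage. All 4 regions were called higher, and 1 of these remained without either Pou4f1 library.

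Grm4 and Grm8 encode presynaptic receptors that inhibit adenylyl cyclase. The Grm4 region, chr17:27429165-27430380, lay 91.6 kb into the gene in intron 10 and holds a POU motif near its centre. It gave 298 and 290 in Pou4f1 and 4.39 and 2.56 in IgG, so replicates of each group were close and the groups far apart (6.07 ± 0.44, adjusted p = 0.00313). With 1 Pou4f1 library left the adjusted p rose to 0.0571 or 0.0546. At the start of Grm8, chr6:28135544-28136264, Pou4f1 gave 246 and 125 and IgG 0 and 9.25, with 5.78 ± 1.43 and an adjusted p of 0.0413 that was lost without either Pou4f1 library (0.329 and 0.292).

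Grm2, a further receptor of the inhibitory kind, had its 2 regions upstream, at 3.2 and 5.0 kb before the gene and at no annotated start. The nearer gave 113 and 103 in Pou4f1 and 0 and 5.62 in IgG (adjusted p = 0.0315, or 0.30 and 0.284 without replicate 1 or 2). The farther gave 115 and 214 in Pou4f1 and 5.81 and 5.69 in IgG, with 4.55 ± 0.51, an adjusted p of 0.00824 and values of 0.00835 and 0.0108 without replicate 1 or 2.

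GABA-A receptors are chloride channels built mostly from alpha, beta and gamma subunits, whose genes lie in clusters. Regions were found for Gabra2, Gabrb1, Gabrg1 and Gabrg3, and none for Gabra3, Gabra4, Gabra5, Gabra6 and Gabrb2. Of the 6 regions 5 were called higher, of which 2 remained without Pou4f1 replicate 1 and 3 without replicate 2. The cluster of Gabrg1, Gabra2, Gabra4 and Gabrb1 on chromosome 5 held 5 of the 6.

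Gabrb1 alone had 3 of them. At 297.4 kb in intron 4 (chr5:71954986-71956074) Pou4f1 gave 122 and 290 and both IgG libraries 0 (adjusted p = 0.00395). At 318.7 kb in the same intron (chr5:71976426-71977189) Pou4f1 gave 177 and 252 and both IgG libraries 0 (adjusted p = 0.00222). Replicate 2 was the higher in both, and both calls held in all 11 alternatives, in which a value of 0 in IgG cannot be rescaled. The third, chr5:71700607-71701433, lay at an internal annotated start 42.9 kb in, beside the antisense gene Gm38562, and gave 159 and 123 in Pou4f1 and 29.5 and 33.3 in IgG (2.12 ± 0.41, adjusted p = 0.0261). That call was lost without Pou4f1 replicate 1 (0.0584) and kept without replicate 2 (0.0460).

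Gabra2 had its region at its start, chr5:71095298-71096733, with 151 and 52.7 in Pou4f1 and 0.690 and 0 in IgG. Although the Pou4f1 libraries were unequal, the groups were well apart, with 6.12 ± 0.76 and an adjusted p of 0.0103 (0.0867 and 0.0624 without replicate 1 or 2). The Gabrg1 region, chr5:70761631-70762493 in intron 8, went the other way. It gave 81.7 and 40.0 in Pou4f1 and 103 and 169 in IgG, so both IgG libraries exceeded both Pou4f1 libraries, although the log2 difference of -1.19 ± 0.61 did not pass the test (adjusted p = 0.148). Of the 4 omissions of a library, that of the library named IgG gave an adjusted p of 0.0365 with IgG higher, and the others gave 0.254 to 0.38.

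Gabrg3 encodes a gamma subunit. Its region in intron 3, chr7:57278386-57280034, gave 72.1 and 145 in Pou4f1 and 0 and 8.36 in IgG (5.08 ± 1.38, adjusted p = 0.0487). Both Pou4f1 values exceeded both IgG values, and the call was lost without either Pou4f1 replicate (0.317 and 0.323). Gabrb2 and Gabra6, neighbours on chromosome 11, were farther from any region, with the nearest 1050 and 1360 kb away.

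GABA-B receptors are G protein-coupled pairs in which the Gabbr1 product binds GABA and the Gabbr2 product couples to the G protein. Both genes had regions, and Gabbr2, with 6, had the most of any receptor gene. Most of these signals were low, with a median percentile of 7.68 among all regions for the 7 GABA-B regions, 4 of which were in the bottom 10%. Of the 7 regions 4 were called higher and 1 remained without either Pou4f1 replicate.

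The strongest Gabbr2 region lay 121.8 kb into the gene in intron 2 (chr4:46869623-46870476), with 417 and 503 in Pou4f1 and 14.3 and 0 in IgG (6.88 ± 1.60, adjusted p = 0.0373). That call was lost without either Pou4f1 replicate (0.314 and 0.303). Next to it at 123.2 kb, a region with a POU motif (chr4:46867993-46869260) gave 93.9 and 153 in Pou4f1 and 19.2 and 31.2 in IgG (2.25 ± 0.53, adjusted p = 0.0389, or 0.167 and 0.220 without replicate 1 or 2). At 259.9 kb in intron 11 the Pou4f1 libraries gave 251 and 432 and the IgG libraries 0 and 38.0 (adjusted p = 0.0831). The intronic regions at 121.8 and 259.9 kb thus stood above the other 4 of the gene in both Pou4f1 libraries.

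The other Gabbr2 regions were among the lowest of the receptor regions. At 108.7 kb in intron 1, chr4:46882540-46883846, Pou4f1 gave 65.1 and 40.9 and both IgG libraries 0 (adjusted p = 0.00376). The region at 261.9 kb, chr4:46729387-46730549, gave 79.0 and 58.3 in Pou4f1 and 20.6 and 0 in IgG (adjusted p = 0.122). At the start of Gabbr2, chr4:46990048-46991250, Pou4f1 gave 82.4 and 74.0 and IgG 0 and 24.6 (3.97 ± 1.88, adjusted p = 0.128). Thus the start of the gene had less Pou4f1 signal than its strongest intronic region in both replicates. Gabbr1 had a single region at an internal start 4.2 kb into the gene, chr17:37049535-37050813, with 82.2 and 51.0 in Pou4f1 and 18.7 and 11.1 in IgG. The difference of 2.09 ± 0.54 just passed (adjusted p = 0.0439), and it was lost without either Pou4f1 replicate (0.253 and 0.178).

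Glycine receptors are inhibitory chloride channels of alpha subunits, from Glra1 to Glra4, and the beta subunit of Glrb, which binds the scaffold gephyrin. No alpha subunit gene had a region, and the nearest to Glra4 was 15.5 kb away. The Glrb region, chr3:80866779-80867467 in intron 4, gave 303 and 99.1 in Pou4f1 and 143 and 60.0 in IgG. The library named IgG exceeded Pou4f1 replicate 2, and the log2 difference of 0.90 ± 0.88 did not pass (adjusted p = 0.385). Its sign turned when IgG was taken as 2 times shallower.

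Nicotinic receptors are the acetylcholine-gated cation channels that carry early retinal waves, and 1 of 13 genes, Chrnb2, had a region. Chrnb2 encodes the beta subunit that these waves depend on. Its region in intron 5, 4.7 kb into the gene (chr3:89759499-89760394), gave 353 and 304 in Pou4f1 and 0 in both IgG libraries (adjusted p = 0.00222). A second region, 8.4 kb before the gene at the start of Ube2q1, gave 183 and 119 in Pou4f1 and 15.9 and 36.6 in IgG (2.56 ± 0.64, adjusted p = 0.0418, or 0.30 and 0.245 without replicate 1 or 2). The intronic region was the stronger in both Pou4f1 libraries. It alone of the pair kept its call without either, where the spread came from IgG libraries both at 0.

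The cluster of Chrna3, Chrna5 and Chrnb4 had no region within 10 kb. The nearest lay at the start of Gm47887, 18.8 kb from Chrnb4, with 166 and 126 in Pou4f1. The genes Chrna6 and Chrnb3, which lie side by side, were 142 and 108 kb from the nearest region. Chrna1, Chrna2, Chrna4, Chrna7, Chrna9, Chrna10 and Chrnb1 had none either. Of the muscarinic genes, which encode G protein-coupled acetylcholine receptors, Chrm3 had a region and Chrm1, Chrm2, Chrm4 and Chrm5 had none. The Chrm3 region lay at a start of the gene, chr13:10359875-10361259, with 111 and 75.1 in Pou4f1 and 8.81 and 0 in IgG. The groups were apart and the difference of 4.88 ± 1.37 narrowly missed the threshold (adjusted p = 0.0511).

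The Pou4f1 replicates differed from each other by the place of the region. At own starts replicate 2 was above replicate 1 in 1 of 10 regions (10%), with a median ratio of replicate 2 to replicate 1 of 0.648. Away from starts it was above in 13 of 22 (59.1%), with a median ratio of 1.13. All regions of the table showed the same split, with replicate 2 above in 17.3% of regions at a start and in 63.7% of those away from starts. Regions at own starts had a median CpG observed over expected of 0.607 and a GC content of 60.8%, and those away from starts 0.229 and 54.3%. The part of base composition in the ratio of the replicates was not tested. At own starts 5 of 10 regions were called higher, and away from starts 15 of 22 (68.2%) were called. Fewer calls were left in both places when a Pou4f1 library was omitted, with the spread then taken from IgG. At own starts 0 regions were at 0 in both IgG libraries, against 6 away from starts, so the calls left do not compare the places. Of all regions 62.1% at a start and 69.9% away from starts were called.

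**Figure D4:**
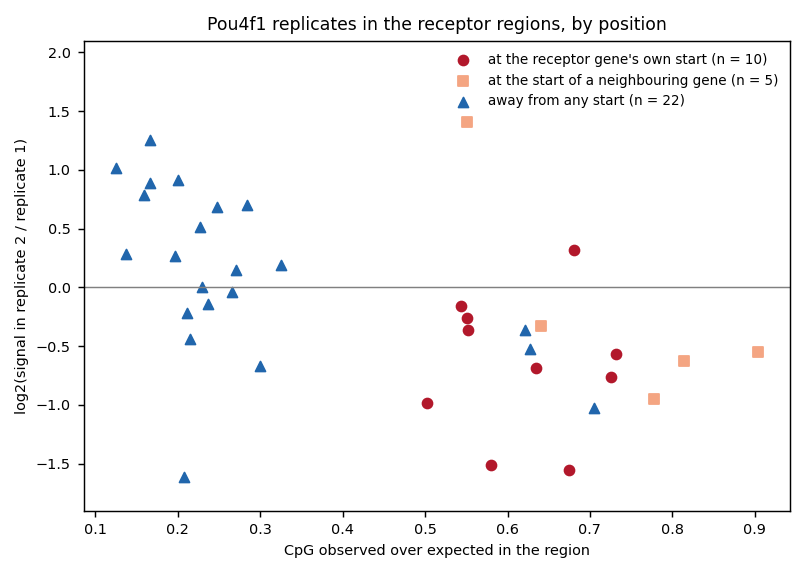
The log2 ratio of the signal in Pou4f1 replicate 2 to replicate 1 in each receptor region (y axis) against the ratio of observed to expected CpG in its sequence (x axis), by place of the region. Most of the 10 regions at own starts (circles) lie below the line of equal signal and at high CpG, while 13 of the 22 away from starts (triangles) lie above it.

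Genes that make, transport or break down the same transmitters, or that anchor and modify the receptors, were searched in the same way for comparison. Of 60 such partner genes 28 (46.7%) had a region, against 35.0% of all protein-coding genes. A region at their own start was present for 18 (30%), against 17.5% of the receptor genes and 25.4% of all protein-coding genes. Of their 47 regions 30 (63.8%) were called higher, against 64.8% of all regions. Fewer were called when either Pou4f1 library was omitted, as over all regions. In 46 (97.9%) the Pou4f1 and IgG values did not overlap, against 96.5% of all regions. The most regions were at Grip1, which encodes an AMPA receptor scaffold, with 7 of which 5 were called (0 and 1 without Pou4f1 replicate 1 or 2). Dlg2, a scaffold of NMDA receptors, had 4 with all 4 called, and Slc17a6, the vesicular glutamate transporter of RGCs, had 3 with all 3 called. Each had 2 called without either Pou4f1 replicate. Slc1a2, a glutamate uptake transporter, had 3 with 2 called, and neither was called without either Pou4f1 replicate. Grid1, which encodes a delta-type glutamate receptor, had 3 and Ache, the enzyme that breaks down acetylcholine, had 2, with 0 called in either. By length the partner shares were 27.8%, 51.9% and 60.0% from the shortest class to the longest. In the same order the shares were 23.8%, 55.6% and 51.9% of the receptor genes. Over all protein-coding genes they were 27.7%, 44.3% and 56.9%.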

How the data were processed

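Per the labels and the study's text, the authors aligned paired-end 75-cycle CUT&Tag reads to mm10 with Bowtie2 2.4.5. SEACR in its relaxed mode called the regions, with IgG as the negative control. The deposited table gives a signal, a coverage value and not a read count, for 8038 regions in 4 libraries (2 Pou4f1, 2 IgG). The sources used here do not give the scaling of the signal, the depth of the libraries, or whether replicates were pooled for region calling. Signal times region length was a whole multiple of a step particular to each library for 100% of values (tolerance 0.05), and a single step spread over a receptor region of median length was worth 0.0433 to 0.0856. Since such steps are no read counts, a count-based test was not applicable. The control columns carry no replicate number.

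The symbol rule gave 61 receptor genes in GENCODE M21. Of these 4 are not reported here, and no count of receptor genes or regions includes them. A region was assigned to a gene when it overlapped the gene body or lay within 10 kb. A start is an annotated start of any transcript, with a limit of 1 kb to the nearest base of the region. Introns and exons are counted on 1 transcript a gene, and exons of other transcripts were not searched. Region starts were written 1-based. Sequence was read from GRCm38.p6, the build of mm10, where 57 of 57 coding starts read ATG. Pou4f1 was set against IgG on log2(signal + 1) by limma 3.58.1 (R 4.3.3), fitted on all regions without covariates, with Benjamini-Hochberg adjustment and a threshold of 0.05. Differences are on the log2(signal + 1) scale, which understates those of low regions, and no difference is given where both IgG libraries were at 0. An exact permutation test of 2 against 2 libraries cannot reach this threshold. The fit and the motif search were tested on simulated data. Other steps used Python 3.11.15, pandas 2.3.3, numpy 2.4.6, pysam 0.24.0 and matplotlib 3.10.9.

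Values per library were due for regions at an own start, regions with a POU motif, the 5 highest and 5 lowest by mean Pou4f1 log2 signal, and regions of the receptor clusters. The other regions printed (Gria2, Grin2c, Grin3b, Grik3, Grm2, Glrb, Gabrg3, Chrnb2, the Grik4 region in intron 1 and the Gabbr2 region at 259.9 kb) were chosen after their values were seen. The members and lists were chosen with earlier results of these data known. All 60 partner genes matched by symbol. Alternatives were other scalings of IgG, pseudocounts, filters, distances, motif forms and each library left out.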

Additional observations from a re-analysis of the deposited data

How the results depend on the processing

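The count of 23 higher receptor regions fell to 13 with IgG taken as 2 times shallower, 10 with 4 times, 7 with column totals as library sizes and 15 with a pseudocount of 0.1, and rose to 34 with a pseudocount of 10. The range over leaving out each library was 9 to 36. Over all regions the pseudocounts called 43.4% and 92.6% and the omissions 29.4% to 95.9%. The scalings called 36.7%, 26.8% and 22.7%, moved the median log2 difference of 5.22 by -0.51, -1.02 and -2.48, and with column totals 91.7% of calls were higher, against 99.7%. The pseudocounts moved it by 1.63 and -1.78. With column totals 11 receptor regions, not 35, had every Pou4f1 value above every IgG value, and Gabrg1 was called lower. Log2 differences turned negative for Glrb (-0.09, -1.09 and -3.13) under the 3 scalings, and with column totals alone for Gabbr1 (-1.85), the Chrnb2 region at Ube2q1 (-1.43), Gabbr2 at 123.2 kb (-1.74), Grik3 at 205.5 kb (-0.88), Gabrb1 at 42.9 kb (-1.88), Grik5 (-0.50), Gria4 (-0.87) and the start of Grik4 (-1.52). The cause was not tested. The scale of the columns is not known, so these limits bear on each call. In 7 regions both controls were at 0, which no rescaling of IgG can change, so their calls under the scalings say nothing of stability. Nor do their calls without a Pou4f1 library, where the spread came from these controls.

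Counting a region at the gene's own start alone left 10 receptor genes of 24 and 18 partner genes of 28, and other distances gave 18 to 33 and 22 to 38. The POU motif count of 2 was 6 over the whole region, 4 with the looser motif, and 6 with the string ATGCATNA over the whole region (8.18% of all regions), which was chosen after the data were seen. Leaving out regions at starts of other genes, also chosen after the data were seen, gave 20 of 32 higher regions. No paired analysis was possible because the IgG columns carry no replicate number, so the replicate block was not run.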
